A study of Mus musculus with 6 samples.

Results

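The genes described here are 10 components, regulators and transcriptional targets of the Hippo pathway and its effector YAP, chosen by gene symbol: Yap1, Tead1, Tead4, Amotl2, Ajuba, Lats1, Lats2, Wwc1, Axl and Clu. Their 26 single-symbol probe sets were taken from arrays that measured 18193 genes. Expression was measured in intestinal epithelial cell preparations from GGTase-Iβ deficient mice and floxed control mice, with 3 arrays per group, labelled as biological replicates. Every mouse had floxed Pggt1b alleles, came from a mixed 129/SV and C57BL/6 background, and was injected with 1 mg tamoxifen on each of 3 days before cells were taken on day 6. The deficient mice carried VillincreERT2, a tamoxifen-inducible Cre recombinase under the promoter of the epithelial gene villin, and the controls were negative for it. Effects of the recombinase and of the deletion therefore cannot be told apart. The labels used here state neither age nor sex, and they do not say which part of the intestine was sampled.

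Pggt1b codes for the catalytic beta subunit of GGTase-I, an enzyme that attaches a geranylgeranyl lipid to proteins and so anchors them to membranes. In the Hippo pathway, MST kinases activate the kinases LATS1 and LATS2, which phosphorylate the co-activator YAP and hold it out of the nucleus. Unphosphorylated YAP enters the nucleus and binds TEAD transcription factors, which recognise the sequence GGAATG and drive genes such as Ccn1, Ccn2 and Amotl2. Actin tension is known to promote nuclear YAP, and in the intestine YAP is known for its part in regeneration after injury.

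On every array 35.6% to 36.5% of probe sets lay above 5 (log2), the level used here as a filter. The 8 epithelial markers, Epcam and Vil1 among them, all lay between 11.3 and 15.4 (log2). The main Pggt1b probe set read 9.75, 8.88 and 8.83 in deficient arrays, against 9.30, 9.55 and 9.33 in controls, and the changes of its 4 probe sets ran from -0.24 to 0.15. The groups therefore rest on the labels, because whether these probe sets fall inside the deleted part was not tested. Control replicate 2 stood apart in crypt genes: the 7 stem cell and Paneth markers averaged 7.32, 8.06 and 7.86 in deficient arrays, against 7.84, 5.93 and 7.37 in controls.

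None of the 10 genes passed the test across all genes, with limma and Benjamini-Hochberg adjustment at 0.05, whereas 2.09% of the 8893 genes tested did. With each gene represented by its brightest probe set, Amotl2 and Tead1 came nearest, and they lay on opposite sides of 0. Amotl2, which encodes a protein that binds and restrains YAP, averaged 2.23-fold lower in deficient arrays. Tead1, which encodes a DNA-binding partner of YAP, averaged 2.66-fold higher. Of these genes, 7 had a probe set above 5 (log2) on at least 3 arrays and were tested, while Tead4, Ajuba and Axl lay below that level on every array. Of the tested genes, 2 had an unadjusted p under 0.05, and the same 2 had groups that did not overlap. The corresponding shares over all genes tested were 16.9% and 25.7%. The median change was 0.08 for these genes (4 higher, 3 lower) and -0.04 for all genes tested, both on the log2 scale. Because these are bulk preparations, a change in the number of cells expressing a gene and a change in RNA per cell cannot be told apart.

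Yap1, the co-activator itself, differed by less than the spread between arrays in its brighter probe set (1448363_at). It read 9.49, 9.38 and 9.05 in deficient arrays, against 8.98, 9.49 and 9.17 in controls (log2), and the groups overlapped. The change was 0.09 on the log2 scale, with a 95% interval from -0.39 to 0.58 (limma adjusted p = 0.837). The dimmer probe set (1416487_a_at) read 7.29, 6.19 and 5.06 in deficient arrays, against 5.35, 4.75 and 5.56 in controls. Deficient replicates 1 and 2 lay above all controls and deficient replicate 3 lay among them. Its change of 0.96 ± 0.54 (SE, limma adjusted p = 0.407 over probe sets) was 0.41 without deficient replicate 1 and 1.52 without deficient replicate 3.

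Tead1 was higher in every deficient array. Its main probe set (1429556_at) read 8.87, 7.74 and 7.42 in deficient arrays, against 6.76, 6.48 and 6.55 in controls. The lowest deficient array stood clear of the highest control, and the spread was wider among the deficient arrays, at 8.01 ± 0.76, than among the controls, at 6.60 ± 0.15 (SD, n = 3 each). The log2 change of 1.41 ± 0.37 (SE) had a 95% interval from 0.54 to 2.28 and a limma adjusted p of 0.144. The other Tead1 probe set stayed under 5 throughout, with deficient replicate 1 at 4.28 and the other arrays between 2.70 and 2.82.

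Tead4, another TEAD factor, lay below 5 in both probe sets. The first (1426337_a_at) read 3.33, 2.61 and 2.66 in deficient arrays, against 2.64 in each control, so deficient replicate 1 was again the array that stood out. The other (1460683_at) read 2.59, 2.58 and 2.63 in deficient arrays, against 2.53, 2.59 and 2.60 in controls.

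**Figure D1:**
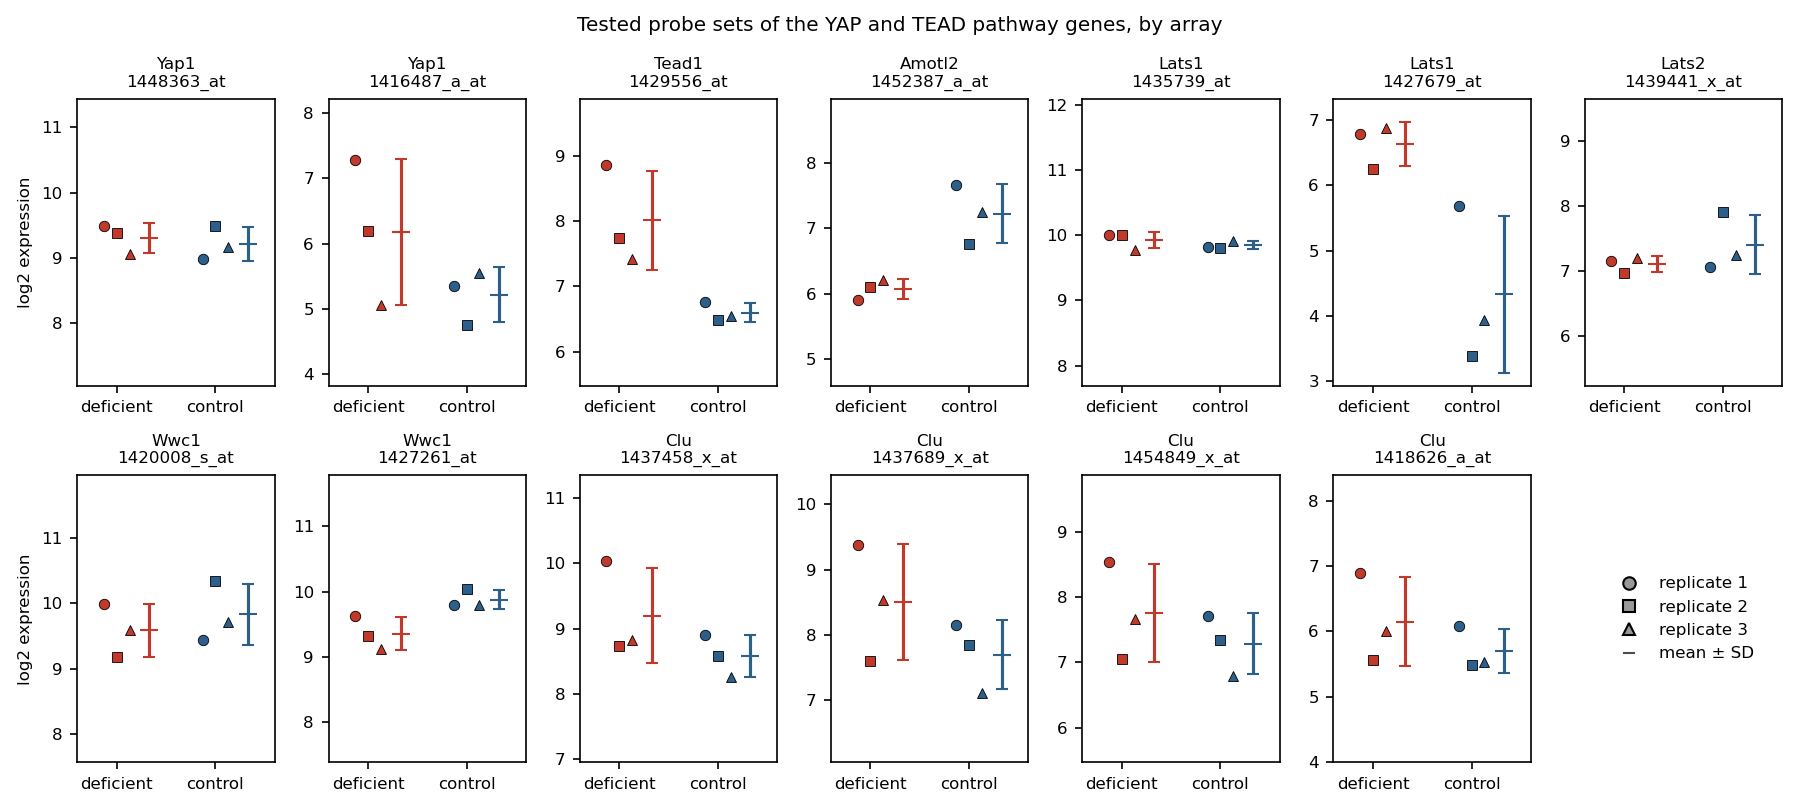
Log2 expression (y axis, each panel spanning the same width on the log2 scale) of the 13 tested probe sets, with deficient arrays in red on the left and control arrays in blue on the right of each panel; symbols mark replicates and bars give the mean ± SD. The red and blue points do not overlap for Tead1, Amotl2, Lats1 1427679_at and Wwc1 1427261_at, and overlap in the other 9 panels.

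Among the kinases, the brighter Lats1 probe set (1435739_at) was nearly constant. It read 9.997, 9.993 and 9.777 in deficient arrays, against 9.82, 9.80 and 9.91 in controls, and these ranges overlapped. The change was 0.08, with a 95% interval from -0.28 to 0.44 (limma adjusted p = 0.810). The dimmer Lats1 probe set (1427679_at) read 6.78, 6.25 and 6.87 in deficient arrays, against 5.68, 3.38 and 3.94 in controls. All deficient arrays lay above all controls here, and 2 of the controls lay under the level of 5. Its fitted change was 2.30 ± 0.57 (SE, limma adjusted p = 0.147 over probe sets), and with values at or below 5 raised to 5 the deficient mean was at least 2.66-fold higher. Without control replicate 1, the highest control, the change was 2.98 and passed (limma adjusted p = 0.0189). The controls left in that fit, at 3.38 and 3.94, lay under the level of 5. The size of that change and its pass therefore rest on control values near the floor. The changes of the 2 Lats1 probe sets differed by 2.22 on the log2 scale, with an exact two-sided permutation p of 0.10, the smallest that 3 against 3 arrays allow (0.48 after adjustment over the 6 probe set pairs compared). Which Lats1 transcripts each probe set detects was not tested.

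Lats2, the related kinase and itself a YAP target, was read by 6 probe sets, of which 1 was tested. That probe set (1439441_x_at), of a design that may match other genes, read 7.15, 6.97 and 7.20 in deficient arrays, against 7.06, 7.91 and 7.25 in controls. The groups overlapped, and control replicate 2 was the high array. The change was -0.30, with a 95% interval from -0.89 to 0.29 (limma adjusted p = 0.553), and -0.05 without control replicate 2. A further Lats2 probe set (1437101_at) lay near the level of 5, at 4.31, 4.86 and 4.36 in deficient arrays and 4.54, 4.98 and 5.01 in controls, and the other 4 lay below 3 on all arrays.

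Wwc1 encodes KIBRA, a scaffold that promotes LATS activation. Its probe set 1427261_at read 9.63, 9.33 and 9.11 in deficient arrays, against 9.79, 10.05 and 9.79 in controls. Every deficient array lay below every control, by a small margin, and the change was -0.52 ± 0.19 (SE, limma adjusted p = 0.264 over probe sets). Probe set 1420008_s_at, of a design that may match other genes, represents Wwc1 in the gene-level fit because its average was slightly brighter. It read 9.997, 9.180 and 9.60 in deficient arrays, against 9.44, 10.35 and 9.71 in controls, and these overlapped. Its change was -0.24 (95% interval -0.97 to 0.48, limma adjusted p = 0.702), and 0.01 without control replicate 2, the highest array. The other 2 probe sets of Wwc1 lay between 2.62 and 3.00 on all arrays.

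**Figure D2:**
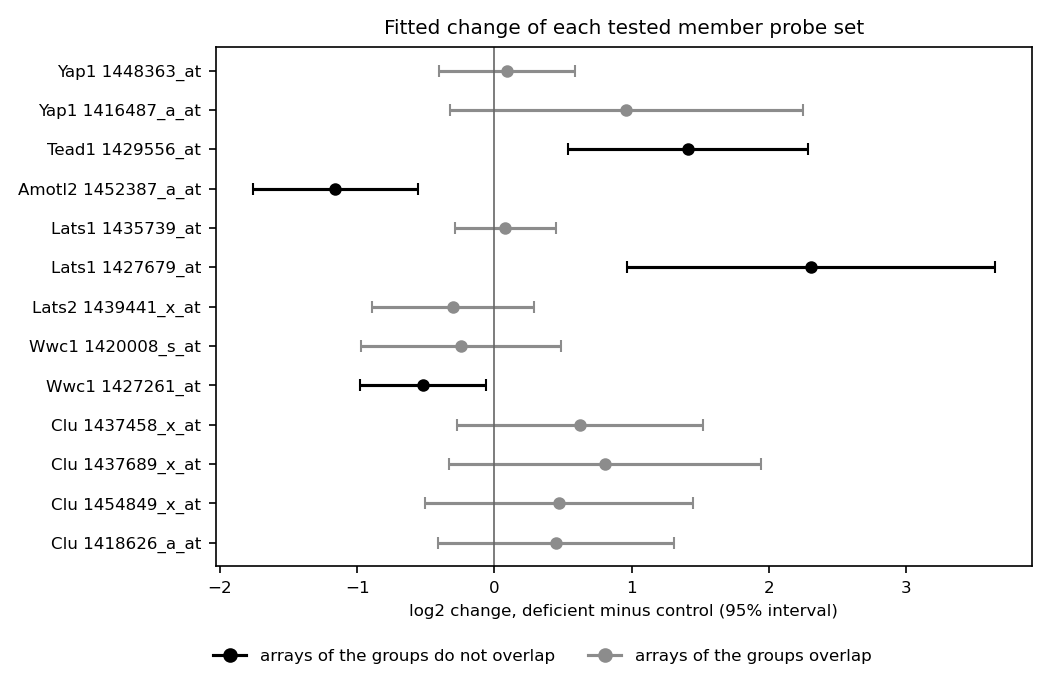
Fitted log2 change (x axis, deficient minus control, with 95% interval from limma) of each tested probe set; black marks those whose groups do not overlap and grey those whose groups do. The intervals of Tead1, Amotl2, Lats1 1427679_at and Wwc1 1427261_at exclude 0, and none of the 13 passed after adjustment over 14478 probe sets.

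At the level of probe sets, 0 of the 13 tested passed, against 1.47% of all 14478 probe sets tested. Groups did not overlap for 4 of them, against 24.8% of all tested. Unadjusted p lay under 0.05 for the same 4, against 16.5% of all tested. Deficient replicate 1 was the highest of the 6 arrays in 8 of the 13 probe sets, and control replicate 2 was the highest in 3 and the lowest in 4. Those 8 were all the tested probe sets of Clu, Yap1 and Tead1 and the brighter one of Lats1. Probe sets of the same gene are not independent.

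Amotl2 encodes an angiomotin family protein that binds YAP at cell junctions, and it is also a transcriptional target of YAP and TEAD. Its probe set (1452387_a_at) read 5.90, 6.10 and 6.20 in deficient arrays, against 7.67, 6.76 and 7.25 in controls. All deficient arrays lay below all controls, and they varied less, at 6.07 ± 0.15, than the controls at 7.22 ± 0.45 (SD, n = 3 each). The log2 change was -1.16 ± 0.25 (SE), with a 95% interval from -1.76 to -0.56 and a limma adjusted p of 0.0886. It passed with array weights (limma adjusted p = 0.0268) and without control replicate 2 (0.0468), with changes of -1.14 and -1.39, and over the 15 alternatives run its adjusted p lay between 0.0268 and 0.265.

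The genes with the most similar profile over the 6 arrays, by root mean square difference of mean-centred log2 values, were Slain1, Tmem123 and Vim, at 0.13, 0.16 and 0.16. Vim, the intermediate filament vimentin of mesenchymal cells and leukocytes, read 8.77, 8.92 and 9.27 in deficient arrays, against 10.61, 9.75 and 9.81 in controls. Marker lists of other cell types also averaged lower in the deficient arrays, although their members did not all do so. The 12 fibroblast and smooth muscle markers averaged 4.96 to 5.26 in deficient arrays, against 5.36 to 5.99 in controls, and Col1a1, Des, Lum, Myh11 and Tagln were not above 5 on any array. Of the 6 tested, 0 passed, 3 were lower (Vim, Col1a2 and Col3a1, whose groups did not overlap) and 3 higher by mean (Pdgfrb at 0.41, Dcn at 0.13 and Acta2 at 0.06). The 11 myeloid markers averaged 6.11 to 6.85 in deficient arrays, against 7.43 to 7.99 in controls, with 4 passing, and Cd68 and Itgam were not above 5 on any array. The 10 lymphocyte markers averaged 5.45 to 7.17 in deficient arrays, against 9.55 to 9.73 in controls, with 8 passing and each of the 10 above 5 on some array. The part of these cells in the Amotl2 difference was not tested. All 7 endothelial markers, Pecam1 and Cdh5 among them, lay between 1.68 and 3.09 on every array.

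Ajuba, a LIM domain protein that inhibits LATS kinases and is a YAP target, lay near the floor. Its probe set read 3.47, 2.63 and 2.84 in deficient arrays, against 3.11, 2.62 and 2.86 in controls, and no difference could be measured at that level. Axl, a receptor tyrosine kinase and YAP target, was as dim, with values of 2.03 to 3.00 in deficient arrays and 2.06 to 3.12 in controls over its 2 probe sets.

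The upstream sequence of these targets was examined for GGAATG, the core of the TEAD binding sequence, on either strand. The table of RefSeq promoters used here (GRCm38.p6) matched 7 of the 10 genes, with 8 entries, and 4 of these genes held a match in the 250 bases before an annotated start, whereas 14.4% of the 27025 genes in the table did. The AP-1 sequence TGANTCA, a frequent neighbour of TEAD sites in enhancers, was found in 0 of the 7, against 7.82% of the genes in the table. The matches in Amotl2, Axl, Ajuba and Yap1 are shown with 10 bases on each side, with the match in capitals, beside that of Ccn1, the target with the lowest fitted change in the wider list. They lie 65, 233, 186 and 164, 141, and 103 bases before the start, counted to the first base of the match.
Amotl2, chr9:102717729-102717754, plus strand: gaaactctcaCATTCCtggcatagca
Axl, chr7:25788951-25788976, minus strand: aaattctacaGGAATGtttaccagac
Ajuba, chr14:54577832-54577857, minus strand: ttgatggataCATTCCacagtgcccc
Ajuba, chr14:54577810-54577835, minus strand: cccctccgcgCATTCCaactgtaaac
Yap1, chr9:8004722-8004747, minus strand: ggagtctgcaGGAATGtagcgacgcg
Ccn1, chr3:145650073-145650098, minus strand: cgccaaccaaCATTCCtgagatgttt
Axl and Ajuba hold matches as Amotl2 does, and both lay below 5 on all arrays. A match describes these letters in the sequence and does not show that TEAD binds there.

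Clu encodes clusterin, a secreted chaperone that marks a regenerative intestinal cell state in which YAP is active. Its brightest probe set (1437458_x_at) read 10.04, 8.74 and 8.83 in deficient arrays, against 8.90, 8.58 and 8.26 in controls. Deficient replicate 1 was the highest array, and the other deficient arrays lay within the range of the controls. The change was 0.62, with a 95% interval from -0.27 to 1.51 (limma adjusted p = 0.427), and 0.20 without deficient replicate 1. The other 3 probe sets changed by 0.81, 0.47 and 0.45, each with its highest value in deficient replicate 1, at 9.38, 8.54 and 6.89. Of the 4 probe sets, 3 are of a design that may match other genes, and the changes of the 4 differed by at most 0.18 from that of the brightest.

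Beyond these 10 genes, 60 other genes of the pathway lists were on the array and 35 were tested. None passed, with limma over all genes. The unadjusted limma p lay under 0.05 for 6 of the 35, against 16.9% of all genes tested. Groups did not overlap for 7 of the 35, against 25.7% of all genes tested. By mean, 20 were higher and 15 lower, and the median change was 0.07. The lowest adjusted p was 0.154.

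**Figure D3:**
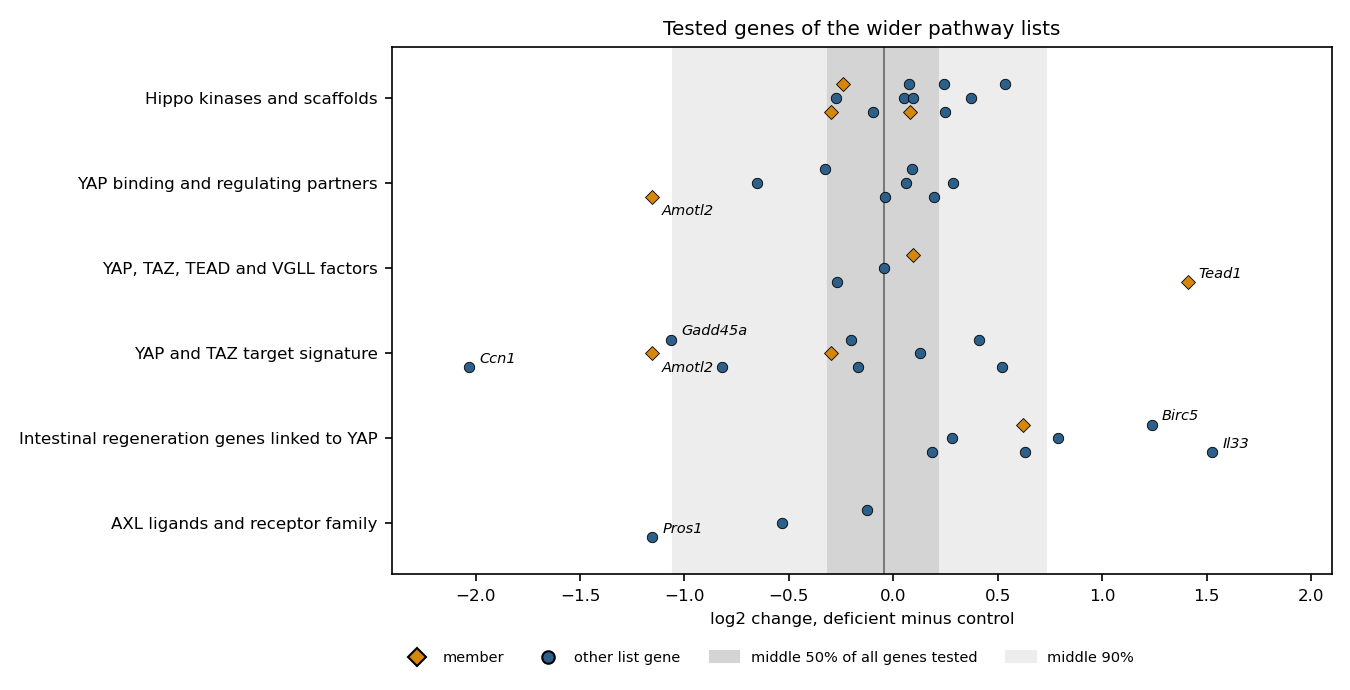
Log2 change (x axis, deficient minus control) of every tested gene of 6 pathway lists (rows); orange diamonds are the genes described above, blue circles other list genes, and the grey bands hold the middle of all 8893 genes tested around their median of -0.04. Labelled genes changed by more than 1 in either direction, from Ccn1 at -2.03 to Il33 at 1.53, and most kinases and scaffolds lie inside the darker band or close to it.

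Of 9 Hippo kinases and scaffolds tested beside those above, 7 were higher and 2 lower by mean, within -0.27 to 0.53. Map4k4, a kinase that can activate LATS, read 8.17, 8.16 and 7.86 in deficient arrays, against 7.54, 7.81 and 7.23 in controls, which did not overlap (change 0.53, limma adjusted p = 0.265). Its other tested probe sets changed by 0.62 (1422615_at, groups apart) and 0.24 (1448050_s_at, groups overlapping). The atypical cadherin Fat1 was at 0.37 and Stk4, which encodes MST1, at -0.27 (limma adjusted p = 0.353 and 0.404). Among YAP partners, Limd1, an Ajuba family protein, was at -0.65, Amot at 0.28 and Csnk1e, a casein kinase, at -0.33 (limma adjusted p = 0.296, 0.476 and 0.587). The groups overlapped in that Limd1 probe set. They did not in its other one (1422730_at), at -0.66 (limma adjusted p = 0.282 over probe sets). Of the other transcription factors and cofactors, Vgll4, which competes with YAP for TEAD, was at -0.27 and Tead3 at -0.05 (limma adjusted p = 0.547 and 0.910). Wwtr1, which encodes the YAP paralogue TAZ, was not above 5 in any of its 3 probe sets.

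The target signature held the lowest change of all the tested pathway genes. Ccn1, a secreted matricellular protein also known as CYR61, read 10.30, 8.33 and 9.33 in deficient arrays, against 12.16, 10.70 and 11.20 in controls. The groups did not overlap, and the change was -2.03 ± 0.56 (SE, limma adjusted p = 0.162). Its other 3 probe sets changed by -1.84, -1.56 and -2.30, without overlap of the groups in any of them. Among the alternatives run, Ccn1 passed only with array weights (limma adjusted p = 0.040, change -2.27) and with the replicate number as a block (0.0233). Gadd45a, a growth arrest gene, read 11.07, 10.03 and 10.92 in deficient arrays, against 11.94, 11.57 and 11.70 in controls, without overlap, a change of -1.06 (limma adjusted p = 0.164). Asap1, an Arf GTPase-activating protein, was at 0.52 with deficient replicate 1 the high array (limma adjusted p = 0.528).

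**Figure D4:**
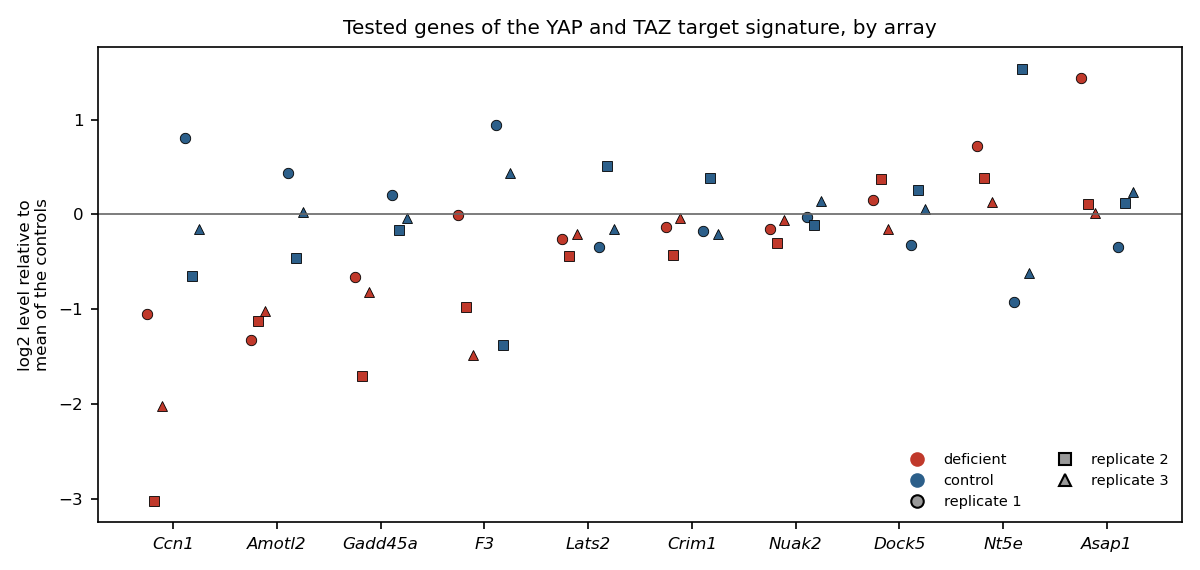
Log2 level of the 10 tested genes of the target signature relative to the mean of their controls (y axis), with deficient arrays in red left of control arrays in blue; symbols mark replicates. Red lies wholly below blue for Ccn1, Amotl2 and Gadd45a, and the colours overlap for the other 7 genes. That is 3 of 10, against 25.7% of all genes tested with groups that do not overlap in either direction.

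Of the 10 tested genes of the signature, 3 were higher and 7 lower by mean, with a median of -0.25, and the 13 genes not tested include the widely used targets Ccn2 and Ankrd1, which were named after their values were seen. Ccn2 read 2.62, 2.56 and 3.04 in deficient arrays, against 2.57, 2.61 and 2.60 in controls, and Ankrd1 lay between 2.27 and 2.33 in deficient arrays and between 2.28 and 2.38 in controls. The Ccn1 promoter upstream of the start is shown whole, from RefSeq on GRCm38.p6 (chr3:145649986-145650235, minus strand), because Ccn1 had the lowest change in the signature, with its match in capitals. Of the 16 signature genes in the promoter table, 7 held a match, against 14.4% of all genes in the table. Amotl2, Axl and Ajuba, already counted above, are among the 7, so the counts are not independent. Also among the 7, the tested gene Crim1 was at -0.20 with overlapping groups.
Ccn1: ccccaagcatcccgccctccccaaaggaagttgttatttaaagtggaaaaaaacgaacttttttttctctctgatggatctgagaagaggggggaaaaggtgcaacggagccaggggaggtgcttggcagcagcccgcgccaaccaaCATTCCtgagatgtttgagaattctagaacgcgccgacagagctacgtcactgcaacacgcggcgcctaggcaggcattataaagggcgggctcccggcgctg
Of the tested signature genes with groups apart, Ccn1 and Amotl2 held a match, and Gadd45a held no match in its window. These genes were picked by their values on these arrays, and whether a match goes with a change was not tested. The AP-1 sequence TGANTCA was found in 1 of the 16 signature genes, against 7.82% of the genes in the table.

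All 6 tested genes linked to YAP in intestinal regeneration, beside Clu, had higher means in deficient arrays, with changes from 0.18 to 1.53 and a median of 0.71, and 0 passed. Deficient replicate 1 was the highest array in 5 of the 6, and the groups did not overlap for 1 of them, against 25.7% of all genes tested. With Clu, the tested genes of the list averaged 9.90, 8.86 and 8.55 in deficient arrays, against 8.68, 8.02 and 8.35 in controls, so the list averages overlapped. Il33, an alarmin cytokine, read 10.97, 9.34 and 9.49 in deficient arrays, against 7.58, 9.19 and 8.45 in controls, with no overlap (change 1.53, limma adjusted p = 0.242). Which cells of the preparations expressed it was not tested. Birc5, the mitotic regulator survivin, was at 1.24 with overlapping groups (limma adjusted p = 0.233), and its lowest array was control replicate 2, at 7.02. Anxa1, an annexin, was at 0.63, with deficient replicate 1 the high array at 11.81 (limma adjusted p = 0.590).

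In the list of the AXL receptor family, the ligands Pros1 and Gas6 were readable although Axl itself was not. Which receptor of the family each ligand acts on here was not tested. Pros1, which encodes protein S, read 5.59, 5.63 and 6.59 in deficient arrays, against 7.20, 7.28 and 6.78 in controls. The groups did not overlap, and the change was -1.15 ± 0.31 (SE, limma adjusted p = 0.154). Among the alternatives run, Pros1 passed only without deficient replicate 3 (limma adjusted p = 0.0317, change -1.48). Gas6, the other ligand of the list, was at -0.53, and the receptor Mertk, which myeloid cells also express, was at -0.12 (limma adjusted p = 0.525 and 0.848).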

How the data were processed

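Total RNA from 6 preparations was hybridised to Affymetrix arrays, 1 per preparation. The deposited values are log2 expression per probe set, inferred from their range (0.42 to 16.4). Partek 6.5 and GCRMA are listed in the submitters' processing notes, with no step assigned to either. GCRMA gathers dim probe sets near a floor, so changes close to it depend on its background model.

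Of 45101 probe sets, 64 controls were left out and 34945 had 1 gene symbol. The brightest probe set by mean represented each of 18193 genes. Those above 5 on at least 3 arrays (8893 genes, 14478 probe sets) entered a linear model per gene or probe set (limma 3.58.1, run under R 4.3.3, with lmFit and eBayes), deficient minus control, with Benjamini-Hochberg adjustment at 0.05. The script was tested on simulated data. The labels call the arrays biological replicates, and no batch is given. The number of arrays limits the precision.

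The members and lists were chosen with earlier results of these data known. The text names every member and, per list, the 3 other tested genes with the smallest p. Alternatives changed the moderation, array weights, filter, normalization, probe set summary, floor and block, and removed single arrays. Some list entries are not reported here.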

Additional observations from a re-analysis of the deposited data

How the results depend on the processing

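With 3 arrays per group, the calls depend on single arrays and on the spread model, while the directions of Tead1, Amotl2, Clu and Lats1 held in the 15 alternatives run. That of Lats2 held in all but the mean of its probe sets, which gave it no value because the mean lay under the filter. Leaving out 1 array gave 93 to 239 genes called (3 to 36 higher, 88 to 203 lower), against 186, 10 and 176, and 95 to 232 probe sets (1 to 35 higher, 94 to 197 lower), against 213, 13 and 200. It gave 0 to 1 members and 0 to 1 other pathway genes. In these fits Yap1 ran from -0.023 (without control replicate 1) to 0.23, and Wwc1 from -0.45 to 0.015 (without control replicate 2). Array weights called 293 genes, 33 of them higher, with 1 member (Amotl2) and 1 other pathway gene (Ccn1). Without a filter 85 genes passed, all lower and 0 higher (limma), and 68 probe sets, 1 higher and 67 lower. The mean of a gene's probe sets gave 117 genes, 6 higher and 111 lower, and moved Lats1 to 1.19. Quantile normalization gave 21 higher probe sets. Deviations from the group means correlated at 0.05, -0.29 and 0.002 between the arrays that share replicate numbers 1, 2 and 3. With 3 arrays per group, these values cannot decide whether equal numbers pair the arrays. With the replicate block 1 other pathway gene (Ccn1) and 0 members passed, and 131 probe sets, 5 higher and 126 lower. The cause of these shifts was not tested. Levels near the floor limit Tead4, Ajuba and Axl.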
